A study of Mus musculus with 32 samples.

Results

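Imprinted genes are the subject of these measurements: 40 mouse genes that are known to be expressed from the maternal or the paternal allele only, in many tissues or in some. A gene entered when at least 1 probe set of the array carried its symbol and no other, and where a gene had several such probe sets the brightest on average stood for it. This gave 38 of the 40 genes, out of 18193 genes measured in all. H19, a maternally expressed RNA, lay on a probe set shared with another symbol, and no probe set carried the symbol Zrsr1, so neither was analysed here. The probe sets used for Snrpn and Peg10 were dim in every group (below log2 4.05, the 40th percentile of all values); for Snrpn, 6 more probe sets carry a second symbol and were not analysed here. This left 36 genes for the tests: 21 expressed from the paternal allele, 13 from the maternal allele, and Gnas and Inpp5f, whose transcripts come from either allele depending on the promoter used.

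In imprinting, DNA methylation that differs between sperm and egg is laid down at control regions and is kept after fertilisation, so that 1 parental copy of a gene stays silent. Many imprinted genes sit in clusters under a shared control region, and many act on growth: Igf2 is a growth factor, Igf2r, Grb10, Cdkn1c and Phlda2 restrain growth, and Plagl1 is a zinc finger transcription factor. Primordial germ cells (PGCs), the precursors of eggs and sperm, erase these marks before new ones are set. The arrays measure total RNA of a gene and give neither its allele of origin nor its methylation.

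The cells follow the route from pluripotency to the germ line. Embryonic stem cells (ESCs) in 2i+LIF become epiblast-like cells (EpiLCs), and EpiLCs become PGC-like cells (PGCLCs) when cytokines including BMP4 are added (Ck-PGCLCs) or when transcription factor transgenes are switched on with doxycycline (TF-PGCLCs). The study asked how factor-induced cells compare with cytokine-induced cells, EpiLCs and ESCs. Each of 16 groups had 2 arrays, called duplicates in the design text.

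The 22 newly submitted arrays came from male cells of mixed C57BL/6 and 129 background, all with Blimp1-mVenus and stella-ECFP reporters and the doxycycline-dependent activator rtTA at Rosa26. With those 3 alleles alone, the parental clone gave EpiLCs after 36 h, Ck-PGCLCs at days 2 and 4, and a control of aggregated cells kept with doxycycline to day 2 (parental +Dox). The TF-PGCLC lines carried in addition tetO-driven piggyBac transgenes for Blimp1, Prdm14 and Tfap2c (BP14A, days 2 and 4), Blimp1 and Prdm14 (BP14, day 2), Prdm14 and Tfap2c (P14A, day 2) or Prdm14 alone (P14, day 2). BP14A ESCs were measured without doxycycline and, after sorting for stella-ECFP, at day 2 of doxycycline. The 10 arrays of an earlier submission came from C57BL/6: male ESCs, EpiLCs after 48 h and Ck-PGCLCs at day 6, with the Blimp1-mVenus and stella-ECFP reporters, E5.5 epiblast, and E9.5 PGCs carrying stella-EGFP, both of unknown sex (E, embryonic day). Factor lines and the parental clone differ in clone as well as in transgenes, so the 2 cannot be told apart. The submissions also differ in genetic background, so groups are compared within a submission below. The exception is the step from ESCs to EpiLCs, whose size is compared between submissions by an interaction term.

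The sequences just upstream of 5 of these genes are printed as examples. They are not typical of the members, since 4 were chosen for a short string, described next, that most members' windows lack. The zinc finger protein ZFP57 is known to bind the letters TGCCGC when methylated and to protect imprints, so each 250-base window before the 5′-most annotated start was searched for TGCCGC on both strands. Of the 34 windows matched in the RefSeq promoter table (build GRCm38.p6), those of Meg3, Plagl1, Zdbf2 and Nap1l5 held it, or 11.8%, against 8.68% of 32851 windows of all genes. A match is a string of letters, not a binding site. The median number of CpG dinucleotides was 10 in the members' windows and 6 in all windows, which likewise were not limited to 5′-most starts. Meg3 (chr12:109540746-109540995, + strand), Zdbf2 (chr1:63200108-63200357, + strand), Plagl1 (chr10:13090582-13090831, + strand) and Nap1l5 (chr6:58907127-58907376, − strand) are printed because their windows hold the match. Peg3 (chr7:6730420-6730669, − strand) is printed for contrast: its window has no match, and it overlaps the window of its neighbour Usp29, which is read from the other strand. Each reads 5′ to 3′ on the gene's strand, and capitals mark TGCCGC or its reverse complement GCGGCA.
Meg3: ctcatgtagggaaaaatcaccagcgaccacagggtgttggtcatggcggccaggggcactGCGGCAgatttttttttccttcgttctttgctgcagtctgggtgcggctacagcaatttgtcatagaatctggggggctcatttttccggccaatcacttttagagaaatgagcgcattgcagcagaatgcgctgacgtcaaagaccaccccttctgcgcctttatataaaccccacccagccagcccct
Zdbf2: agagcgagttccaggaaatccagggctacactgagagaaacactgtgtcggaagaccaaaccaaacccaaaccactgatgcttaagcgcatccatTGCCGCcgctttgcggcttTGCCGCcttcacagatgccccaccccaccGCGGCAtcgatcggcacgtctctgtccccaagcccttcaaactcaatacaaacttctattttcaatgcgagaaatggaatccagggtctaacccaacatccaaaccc
Plagl1: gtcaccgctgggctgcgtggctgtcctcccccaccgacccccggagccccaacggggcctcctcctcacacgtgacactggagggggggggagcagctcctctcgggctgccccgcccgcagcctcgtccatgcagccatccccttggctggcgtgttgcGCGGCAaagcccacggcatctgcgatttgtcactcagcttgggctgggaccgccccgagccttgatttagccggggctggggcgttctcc
Nap1l5: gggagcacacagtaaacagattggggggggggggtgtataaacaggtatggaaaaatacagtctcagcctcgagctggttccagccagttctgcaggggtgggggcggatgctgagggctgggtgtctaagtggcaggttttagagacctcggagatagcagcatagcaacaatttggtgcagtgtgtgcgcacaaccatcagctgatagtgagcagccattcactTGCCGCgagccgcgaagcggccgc
Peg3: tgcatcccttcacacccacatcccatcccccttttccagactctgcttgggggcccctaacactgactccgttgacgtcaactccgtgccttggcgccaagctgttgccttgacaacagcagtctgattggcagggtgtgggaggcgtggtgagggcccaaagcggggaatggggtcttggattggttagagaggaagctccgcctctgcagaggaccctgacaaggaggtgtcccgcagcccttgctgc

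Several members are also hosts of microRNAs, which the arrays did not measure. Within the RefSeq bounds of Mirg lie 10 microRNA genes on its strand, within Rian 3, within Meg3 2, and within Mest and Igf2 1 each. Of the 19 mature microRNAs of Mirg, miR-453 and miR-496a-5p share a seed (bases 2 to 8, in capitals), and no other seed was shared among the hosted microRNAs. They are printed here with those of Mest (miR-335-5p) and Igf2 (miR-483-5p), because the host transcripts changed in the comparisons that follow.
miR-453: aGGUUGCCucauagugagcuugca
miR-496a-5p: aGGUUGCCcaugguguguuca
miR-335-5p: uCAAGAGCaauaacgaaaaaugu
miR-483-5p: aAGACGGGagaagagaagggag

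Levels are log2 array values after quantile normalization, a value for each of the 2 arrays of a group, and the number of arrays limits the precision. Levels of different probe sets are not comparable with each other. Changes are log2 differences of group means from a limma model of 15497 genes, given with their standard error (SE) and an adjusted p (Benjamini-Hochberg over those genes). A gene is called higher or lower, and said to have risen or fallen, at an adjusted p under 0.05 and at least a 2-fold change. Where 1 of the groups lies below the dim level, the size of the difference is imprecise. Array medians ran from 4.62 to 4.78 as deposited, and replicate arrays correlated at 0.9663 to 0.986 across tested genes. On 6 arrays the 5′ Gapdh control lay more than 2.5 below the 3′ control: both of BP14A day 4, BP14 replicate 1, 36 h EpiLC replicate 1, BP14A ESC replicate 1 and BP14A ESC +Dox replicate 2. Germ cell markers (6 of 7 measured) averaged 8.81 to 11.71 in the PGCLC groups and PGCs, against 9.19 to 9.53 in ESCs and 5.43 to 6.69 in EpiLCs, epiblast and parental +Dox cells. In a bulk sample, fewer cells of a type and less RNA per cell cannot be told apart.

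Expression of the imprinted genes varied widely along the route. Over the 11 new groups the range of a member's group means had a median of 2.77, against 1.12 over all tested genes, and over the 5 earlier groups 2.31 against 0.93. A range above 2 was seen in 21 of 36 members in each submission (58.3%), against 21.3% and 16.9% of all genes. The 17 comparisons gave 197 member calls. Plagl1 was called most often, 5 times higher and 9 times lower, then Grb10 (4 and 8), Ascl2 (7 and 4) and Ndn (6 and 5). Peg12 was called higher 7 times, Slc38a4 and Sfmbt2 6 times each and Peg3 5 times, none of them ever lower. Cd81 was called lower 8 times and Meg3 and Mirg 5 times each, none ever higher. Kcnq1ot1, Tssc4, Ppp1r9a, Rasgrf1, Rian and Usp29 were called in no comparison. The map of group means shows these patterns by cluster.

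**Figure D1:**
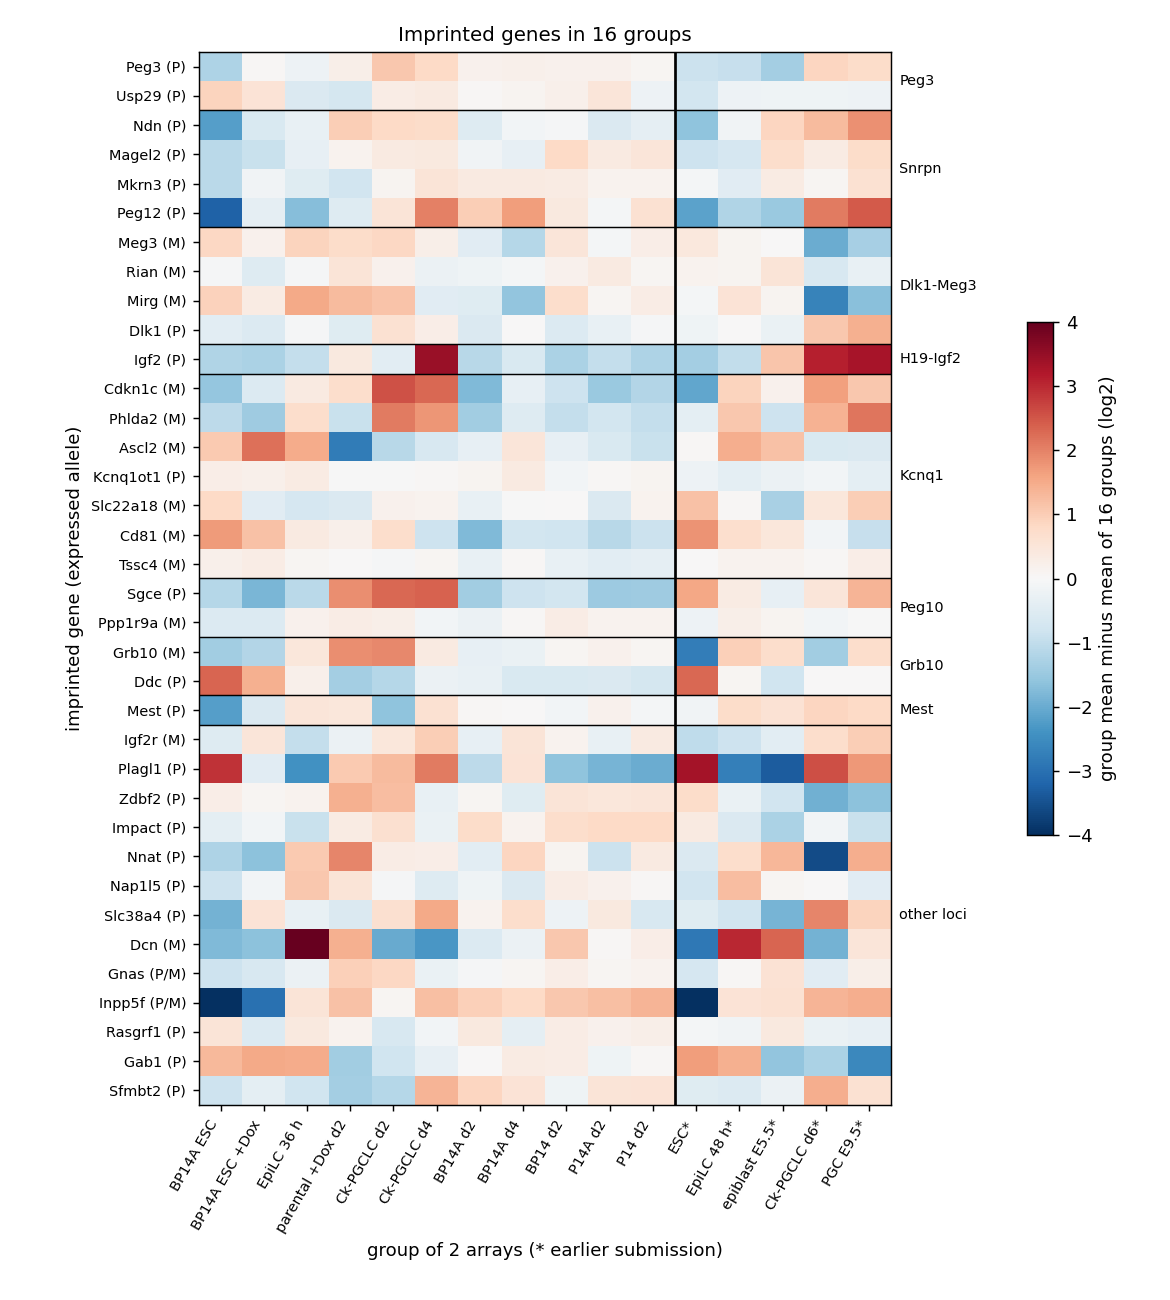
Group mean of each of the 36 tested imprinted genes minus its own mean over the 16 groups (log2, colour, cut at 4 in either direction), with genes in rows by cluster and groups of 2 arrays in columns. P, M and P/M give the expressed allele, and the line separates new from earlier arrays; Plagl1 is high in both ESC groups and low in both EpiLC groups, and Dcn and Inpp5f are the reverse.

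**Figure D2:**
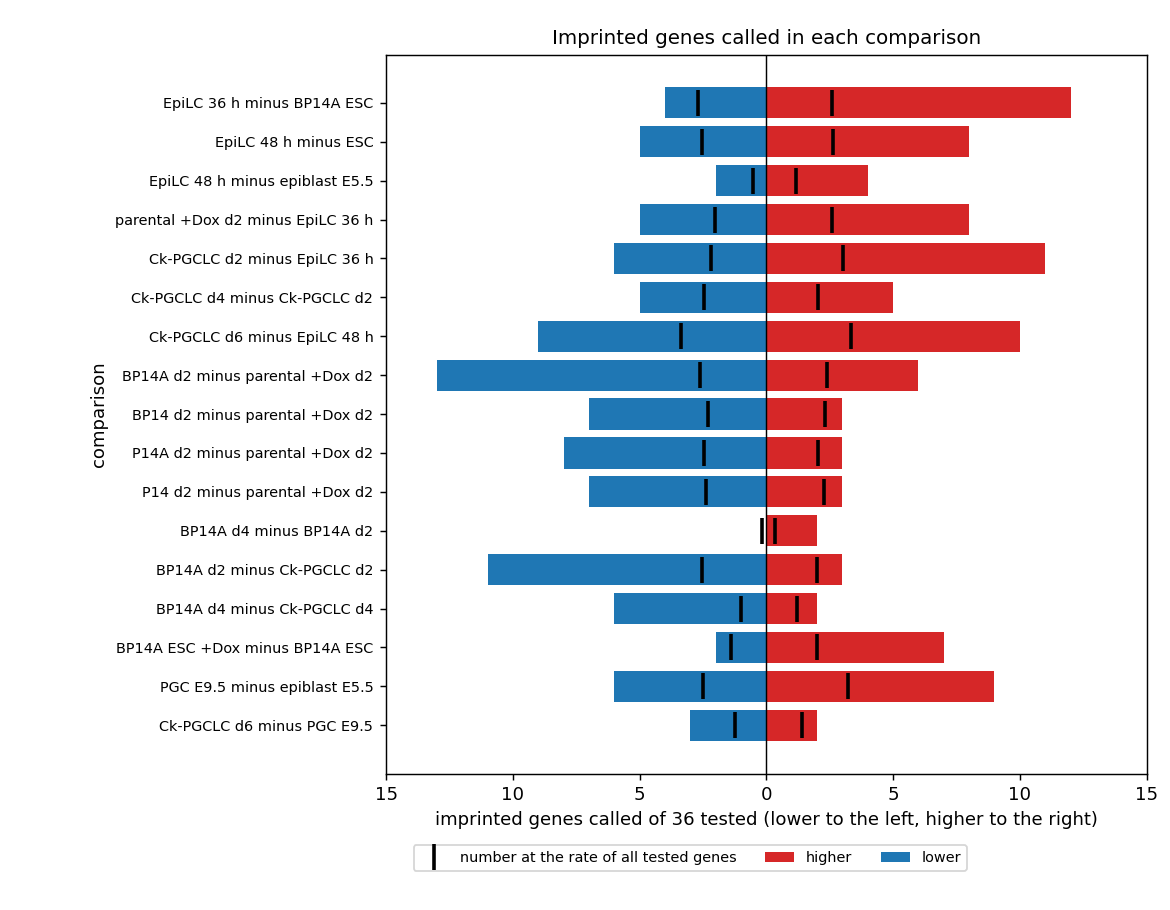
Number of the 36 imprinted genes called higher (red) or lower (blue) in each of 17 comparisons; black ticks give the number that the rate over all 15497 tested genes would give among 36. The bars are longest for BP14A day 2 against parental +Dox (6 higher, 13 lower) and day 6 Ck-PGCLCs against 48 h EpiLCs (10 higher, 9 lower).

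From ESCs to EpiLCs, Plagl1 fell steeply, and Dcn and Inpp5f rose from below the dim level. In 36 h EpiLCs against BP14A ESCs, 12 members rose and 4 fell, or 44.4% of 36, where 14.6% of all tested genes were called (7.17% higher, 7.45% lower). In the earlier submission, with other cells and 48 h EpiLCs, 8 rose and 5 fell, or 36.1%, where 14.4% of all genes were called (7.26% higher, 7.09% lower). Of these, 11 members were called in the same direction in both and 0 in opposite directions, which is 68.8% of the 16 and 84.6% of the 13. The same overlap was not counted over all tested genes, so it does not set the members apart from other genes. All of the 11 but Slc22a18 and Cd81 were called in both without each array in turn. Slc22a18 lost its earlier call without any 1 of the 4 arrays (−1 to −1.25). Its new call was lost without BP14A ESC replicate 2 (−1.31) or EpiLC replicate 2 (−1.09). Cd81 lost its earlier call without EpiLC replicate 1 (−0.79) or ESC replicate 2 (−0.74). The comparisons share no array.

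Plagl1, the transcription factor whose promoter is printed above, read 11.89 and 11.60 in BP14A ESCs and 6.63 and 6.21 in 36 h EpiLCs. It read 11.99 and 12.39 in the earlier ESCs and 6.76 and 5.49 in 48 h EpiLCs. It fell by 5.32 ± 0.37 (SE, adjusted p = 1.92e-09) in the new arrays and by 6.07 ± 0.37 (adjusted p = 5.72e-10) in the earlier ones, and every ESC array lay above every EpiLC array. Dcn encodes decorin, a small proteoglycan of the extracellular matrix, and is maternally expressed in placenta. Its values were 2.09 and 3.17 in BP14A ESCs against 8.98 and 9.06 in 36 h EpiLCs, and 1.41 and 1.67 against 6.88 and 7.93 in the earlier pair of groups. The changes were 6.39 ± 0.49 (adjusted p = 8.16e-09) and 5.86 ± 0.49 (adjusted p = 3.5e-08), both from a dim ESC level, so the folds are imprecise. Inpp5f, an inositol phosphatase gene with an imprinted shorter transcript, read 2.74 and 3.14 in BP14A ESCs and 8.52 and 8.35 in EpiLCs; the earlier values were 2.75 and 4.30 against 8.33 and 8.58. It rose by 5.5 ± 0.31 and 4.93 ± 0.31, and the arrays of the 2 states did not overlap in either submission.

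Cdkn1c, Phlda2 and Grb10, 3 maternally expressed genes that restrain growth, rose in the same step; Igf2r, another, was not called in either submission (−0.42 and 0.17). Cdkn1c, an inhibitor of cyclin-dependent kinases, rose from 6.66 and 6.63 to 8.64 and 8.42 in the new arrays and from 6.04 and 6.17 to 8.86 and 9.30 in the earlier ones. Its log2 changes were 1.89 ± 0.34 and 2.97 ± 0.34. Phlda2, which limits placental growth, rose by 1.76 ± 0.19 and 1.48 ± 0.19, and Grb10, an adaptor that dampens insulin and IGF receptor signalling, by 1.85 ± 0.27 and 3.74 ± 0.27. Among paternally expressed genes, Ndn (necdin) rose by 1.89 ± 0.23 and 1.46 ± 0.23 and Nap1l5 by 1.89 ± 0.37 and 1.99 ± 0.37. Ddc, which encodes the decarboxylase that makes dopamine and serotonin and neighbours Grb10, fell by 2.15 ± 0.22 and 2.23 ± 0.22. By expressed allele, 7 paternal genes rose and 2 fell of 21 in the new arrays, and 4 maternal genes rose and 2 fell of 13. In the earlier arrays these were 2 and 3 of 21 paternal genes, and 5 and 2 of 13 maternal genes.

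The step was not of the same size in both submissions for every member. Slc38a4, an amino acid transporter, read 7.62 and 7.95 in BP14A ESCs and 9.29 and 9.48 in 36 h EpiLCs, but 8.98 and 9.42 in the earlier ESCs and 8.49 and 9.38 in 48 h EpiLCs. Its step differed by 1.86 ± 0.32 between submissions (limma interaction, adjusted p = 0.00593). Mest, a hydrolase-like gene and the host of miR-335, rose by 2.71 ± 0.32 in the new arrays and moved by 0.88 in the earlier ones; that difference, 1.83 ± 0.45, missed the threshold (adjusted p = 0.0629). The new comparison sets a parental clone against a BP14A line and the time in EpiLC medium differs, so clone, background, time and submission cannot be told apart here. The 5′ Gapdh control was low on 1 array of each new group, and a fit without those arrays rests on 1 array of each.

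**Figure D3:**
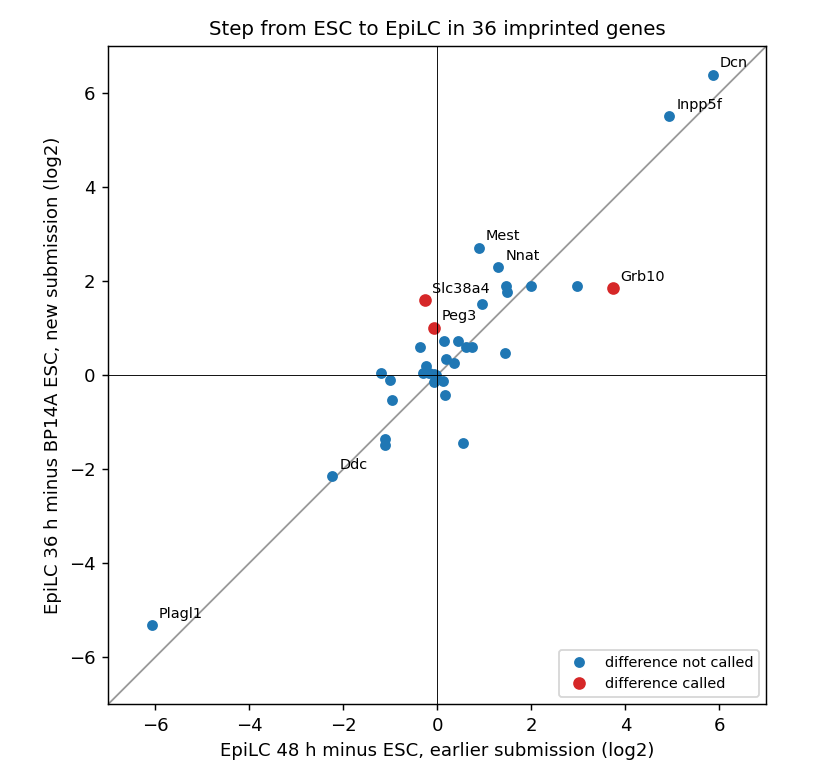
Log2 change of 36 imprinted genes from ESCs to EpiLCs in the earlier submission (x axis) and in the new submission (y axis), each a difference of means of 2 arrays; the line marks equal change. Plagl1, Ddc, Inpp5f and Dcn lie near the line, and red points mark Grb10, Peg3 and Slc38a4, whose steps differed.

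The imprint control genes take part in writing, guarding or removing imprints. Of 17 tested, 5 were called in the new arrays in that step (29.4%, with 3 higher and 2 lower). In the earlier ones 4 were called (23.5%, with 2 and 2), beside 14.6% and 14.4% of all genes. The methyltransferase gene Dnmt3a rose by 6.03 and 4.07 (limma adjusted p = 1.1e-11 and 2.14e-09, new and earlier), and Dnmt3b by 1.82 and 2.51. Dnmt3l rose by 2.46 in the new arrays (limma adjusted p = 5.92e-07) and was not called in the earlier ones (−0.54). Dppa3, whose product protects methylation in the early embryo, fell by 3.08 and 1.05, and Zfp57 by 1.91 and 1.0.

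The 48 h EpiLCs differed from the epiblast in fewer members than from ESCs, and fewer of all genes were called as well. Of 36, 4 were higher and 2 lower in 48 h EpiLCs than in the E5.5 epiblast (16.7%, against 4.74% of all genes, 3.29% higher and 1.45% lower). Gab1, a docking protein in growth factor signalling with imprinting reported in placenta, read 11.16 and 11.09 in EpiLCs and 8.10 and 8.18 in the epiblast, a difference of 2.99 ± 0.21 (adjusted p = 2.23e-08). Phlda2 was higher by 1.92 ± 0.19. Igf2 read 5.93 and 6.26 in EpiLCs and 8.32 and 8.09 in the epiblast, and was 4.31-fold lower (SE 0.37 on the log2 scale, adjusted p = 0.000948). Of 6 extraembryonic endoderm markers all were above the dim level in the epiblast and 5 in 48 h EpiLCs, with list means of 5.44 to 6.36 against 4.54 to 4.59 and Ttr at 8.39 in the epiblast; their part in the result was not tested. Fitted on the earlier arrays alone, 3 members were called.

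At day 2 of cytokine induction Plagl1 and Sgce had risen and Dcn had fallen. Day 2 Ck-PGCLCs against 36 h EpiLCs had 11 members higher and 6 lower (47.2%, against 14.5% of all genes, 8.42% higher and 6.06% lower; of all calls 58.2% were higher, and 69.5% with the values as deposited). Plagl1 read 10.21 and 10.03 at day 2, 3.70 ± 0.37 above EpiLCs (adjusted p = 2.81e-07). Sgce, which encodes a sarcoglycan and neighbours Peg10, read 4.39 and 4.14 in EpiLCs and 7.60 and 7.65 at day 2, a rise of 3.36 ± 0.46. Cdkn1c read 10.65 and 10.79 and rose by a further 2.19 ± 0.34. Dcn read 2.42 and 2.36, below the dim level, and fell by 6.63 ± 0.49, a size that is imprecise. Ascl2, a bHLH factor of trophoblast, fell by 2.60 ± 0.32 from 7.57 and 6.92 to 4.69 and 4.61. Mest fell by 2.1 ± 0.32, and Gab1 by 2.27 ± 0.21. Impact, a regulator of translation under amino acid shortage, rose by 1.53 ± 0.15, from 8.81 and 9.12 to 10.46 and 10.52. The Dlk1-Meg3 RNAs stood level, Meg3 at 12.23 and 12.51 in EpiLCs and 12.31 and 12.34 at day 2, with no call. The streak and mesoderm markers (4 of 5 measured) averaged 8.54 to 10.23 on the arrays of day 2 Ck-PGCLCs and parental +Dox cells, against 3.21 to 5.70 on all others, with all 4 above the dim level in both groups. Trophoblast markers (6 measured) averaged 6.49 to 6.58 at day 2 against 4.3 to 4.8 in EpiLCs, with 5 and 3 of 6 above the dim level. Of these Hand1 (9.88 against 3.5) and Gata3 (7.8 against 1.45) were higher at day 2. Krt7 (5.46 against 6.82) and Plet1 (6.31 against 6.72) were lower. The part of either list in these results was not tested.

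Parental +Dox cells, aggregated for the same 2 days without cytokines or factors, had 8 members higher and 5 lower than 36 h EpiLCs (36.1%, against 12.9% of all genes, 7.23% higher and 5.63% lower). Plagl1 (10.30 and 9.47) rose by 3.47 ± 0.37 and Sgce (7.30 and 7.14) by 2.95 ± 0.46. Ascl2 read 2.62 and 3.29, below the dim level, and fell by 4.29 ± 0.32 (adjusted p = 1.05e-08). Gab1 fell by 2.89 ± 0.21, and Dcn, at 5.98 and 5.65, by 3.21 ± 0.49. Phlda2 fell by 1.59 ± 0.19 here, from 11.14 and 10.99 to 9.30 and 9.64, where it rose by 1.38 ± 0.19 in day 2 Ck-PGCLCs. These comparisons share the EpiLC arrays.

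Between day 2 and day 4 of cytokine induction Igf2 had the largest change of the members. It read 6.42 and 6.93 at day 2 and 11.15 and 9.92 at day 4, a rise of 3.87 ± 0.37 (adjusted p = 2.58e-07). In all 5 members rose and 5 fell (27.8%, against 12.5% of all genes, 5.68% higher and 6.84% lower). Sfmbt2, a Polycomb-related gene imprinted in extraembryonic tissue, rose by 2.49 ± 0.43 from 6.72 and 7.0 to 9.36 and 9.33, and Mest recovered by 2.22 ± 0.32 to 10.99 and 11.35. Zdbf2, a paternally expressed gene, fell by 1.54 ± 0.25 from 10.10 and 9.79 to 8.51 and 8.30. Grb10 fell by 1.57 ± 0.27 and Cd81, a tetraspanin, by 1.53 ± 0.32. Mirg fell by 1.61 ± 0.43 (adjusted p = 0.0101), a call lost without day 2 replicate 2 (adjusted p = 0.0799) or day 4 replicate 1 (0.0967). Streak markers averaged 9.98 to 10.23 at day 2 and 4.31 to 4.87 at day 4 (4 and 2 of 4 above the dim level), and trophoblast markers 6.49 to 6.58 and 5.97 to 6.09. Mesenchyme and fibroblast markers averaged 4.61 to 4.63 and 4.77 to 4.98 (5 and 6 of 8), with Col3a1 at 3.81 and 6.29. The part of these cells in the result was not tested.

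By day 6, 10 members were higher and 9 lower than in 48 h EpiLCs (52.8%, against 18.6% of all genes, 9.26% higher and 9.38% lower). Of 21 paternal genes 9 were higher and 4 lower, with a median change of 0.49; of 13 maternal genes 1 was higher and 5 lower, with a median of −0.76, and the median of all genes was −0.03. Plagl1 read 11.01 and 11.83 at day 6 (up 5.30 ± 0.37, adjusted p = 1.76e-09) and Igf2 10.33 and 10.07 (up 4.11 ± 0.37). Peg12, an intronless gene related to the Frat family, read 6.93 and 6.28 against 2.98 and 3.69, up 3.27 ± 0.46 from a dim level. Slc38a4, at 11.63 and 11.68, was up 2.72 ± 0.22 and Peg3, at 12.39 and 12.54, up 1.77 ± 0.18.

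Of the noncoding RNAs of the Dlk1-Meg3 cluster, Meg3 and Mirg fell; Rian, at 4.42 and 5.38 against 3.96 and 4.33, was not called (−0.76). Meg3 read 11.82 and 11.39 in 48 h EpiLCs and 9.75 and 9.28 at day 6, and fell by 2.09 ± 0.35 (adjusted p = 0.000116). Mirg read 9.03 and 8.55 against 6.00 and 5.14, and fell by 3.23 ± 0.43 (adjusted p = 8.74e-06). Nnat, a paternally expressed proteolipid gene within an intron of Blcap, read 9.02 and 8.02 against 4.46 and 4.02, and fell by 4.28 ± 0.65 (adjusted p = 3.78e-05). Dcn (down to 2.29 and 2.73), Gab1 (8.33 and 8.52) and Grb10 (8.28 and 8.47) fell as well, Grb10 by 2.34 ± 0.27. Zdbf2, named for its promoter sequence with its values known, stood at 6.86 and 6.66 against 8.70 and 8.14 and fell by 1.66 ± 0.25. Of the control genes, Dnmt3a fell by 4.23 and Dnmt3b by 5.24, and Dppa3 rose by 3.80.

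**Figure D4:**
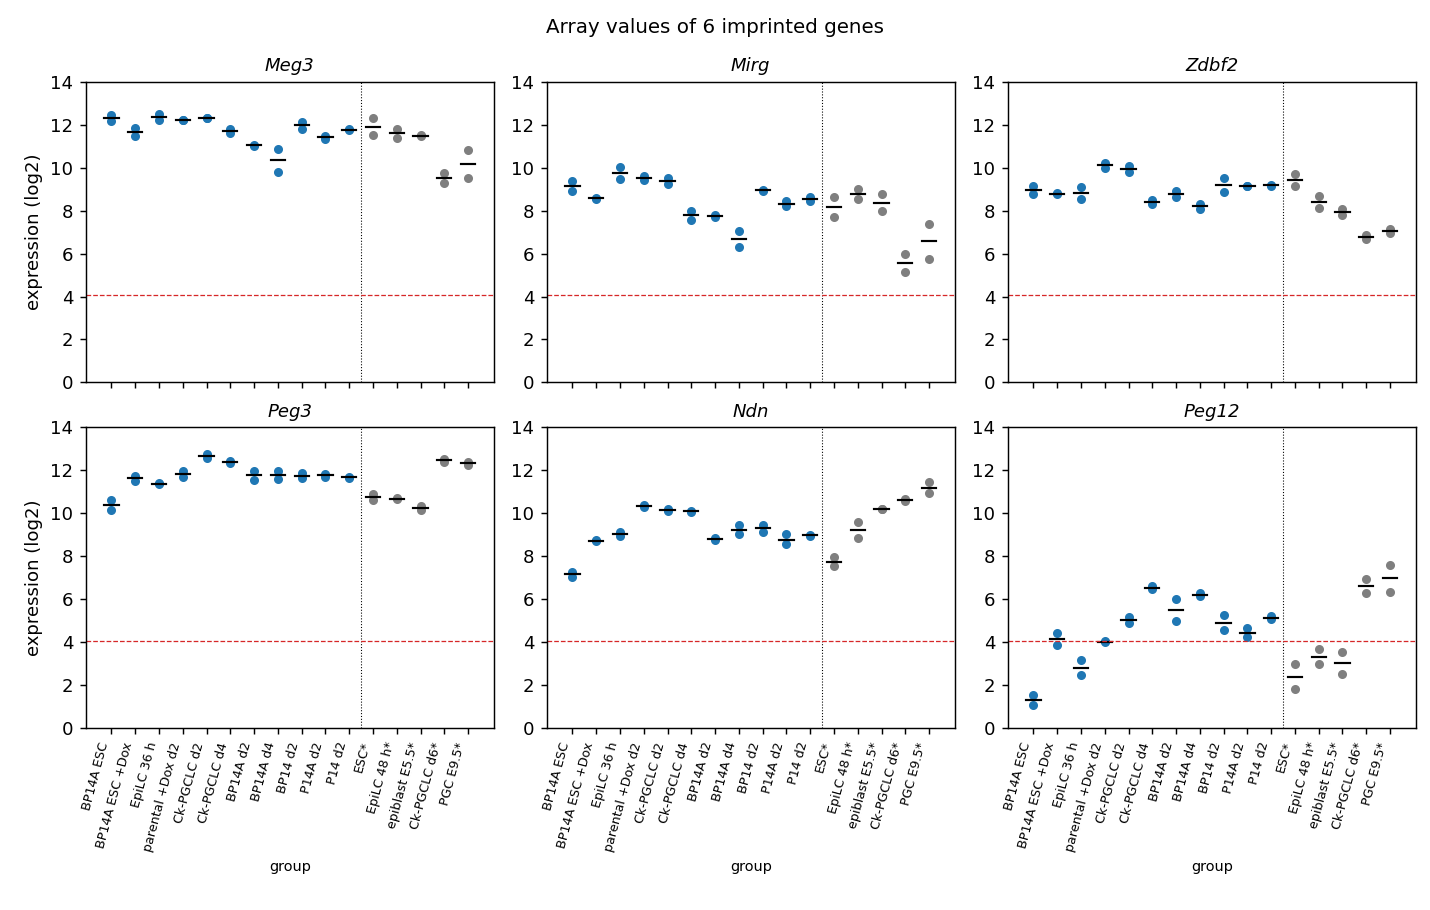
Log2 array values of Meg3, Mirg, Zdbf2, Peg3, Ndn and Peg12 in 16 groups; dots are arrays, bars group means of 2 arrays, the dashed line the dim level of 4.05, and the dotted line separates new (blue) from earlier (grey) arrays. Among the earlier groups, Meg3, Mirg and Zdbf2 are lowest in day 6 Ck-PGCLCs, where Peg3 and Peg12 are at or near their highest.

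In PGCs against the epiblast Plagl1, Peg12 and Phlda2 had the largest rises. At E9.5, 9 members were higher and 6 lower than in the epiblast (41.7%, against 15.8% of all genes, 8.9% higher and 6.9% lower). Of the members called here and between day 6 Ck-PGCLCs and 48 h EpiLCs, 11 had the same direction and 0 the opposite, 73.3% of the 15 and 57.9% of the 19. Here too the overlap over all tested genes was not counted. The comparisons share no array. The shared genes were Plagl1, Peg12, Peg3, Igf2, Slc38a4 and Dlk1, higher, and Dcn, Mirg, Meg3, Ascl2 and Gab1, lower. Of these, Plagl1, Peg12, Peg3, Igf2, Slc38a4 and Ascl2 were called in both comparisons without each array in turn. Dlk1, 1.08 higher in day 6 Ck-PGCLCs, lost that call without day 6 replicate 1 (0.83, adjusted p = 0.192) or either EpiLC array (1.18 and 0.97, adjusted p = 0.071 and 0.136).

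Plagl1 read 5.76 and 5.32 in the epiblast and 10.66 and 10.53 in PGCs, a rise of 5.06 ± 0.37 (adjusted p = 3.42e-09). Peg12 rose by 3.92 ± 0.46, from 3.56 and 2.53 to 7.58 and 6.35. Phlda2 rose by 2.98 ± 0.19, from 9.54 and 9.49 to 12.39 and 12.61, and Slc38a4 by 2.74 ± 0.22. Slc22a18, a transporter gene of the Kcnq1 cluster, read 5.27 and 3.82 against 6.82 and 6.85 and rose by 2.29 ± 0.38. Ascl2 fell by 1.74 ± 0.32 and Cd81 by 1.37 ± 0.32. By expressed allele, 7 paternal genes were higher and 1 lower of 21, and 2 maternal genes were higher and 5 lower of 13.

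The PGC arrays differed from each other in these genes. Replicate 1 lay above replicate 2 by more than 1 (log2) in 8 of the 36 members, Cdkn1c, Dcn, Dlk1, Igf2, Meg3, Mirg, Nnat and Peg12, and replicate 2 above replicate 1 in 1, Sfmbt2. Nnat read 10.66 and 7.84 and Mirg 7.39 and 5.77. The replicate numbers pair the earlier arrays, and replicate 1 was the higher in all 5 earlier groups for Mirg, Nnat and Dlk1 and in 4 of 5 for Meg3. Within the pairs, PGCs differed from the epiblast by −1.38 and −2.21 in Mirg, −0.68 and −2.01 in Meg3, −1.15 and −2.57 in Dcn, and 2.31 and 1.11 in Dlk1, and these 4 calls held with the replicate block. Replicate 1 also had the higher mean of 8 mesenchyme and fibroblast markers, 6.30 against 5.15, and of 2 primitive blood markers, 11.95 against 10.35. Outside the PGCs these lists reached 3.86 to 4.98 and 3.87 to 5.37, and Col3a1 stood at 9.47 and Hba-x at 12 in PGCs; 6 germ cell markers averaged 11.44 and 11.71. The part of these other cells' RNA in the imprinted gene values was not tested. Without the block, and without PGC replicate 2, Meg3 and Mirg kept their direction against the epiblast, at −0.68 and −0.99, and lost their calls (adjusted p = 0.187 and 0.115); the call of Mirg was also lost without epiblast replicate 1 (−1.41, adjusted p = 0.0626). The calls of Dcn, without replicate 2 (−1.10, adjusted p = 0.163), and of Dlk1, without replicate 1 (0.89, adjusted p = 0.0557), were lost as well. Gab1, 1.02 lower, came under the 2-fold limit without PGC replicate 2 (−0.89) or epiblast replicate 2 (−0.98).

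Day 6 Ck-PGCLCs and PGCs differed in 5 members, 2 higher and 3 lower in the PGCLCs (13.9%, against 7.36% of all genes, 3.9% higher and 3.46% lower). Nnat stood at 4.46 and 4.02 in PGCLCs, a difference of −5.01 ± 0.65 from PGCs (adjusted p = 2.43e-05). Grb10 was 8.28 and 8.47 against 10.83 and 10.07, lower by 4.22-fold (SE 0.27 on the log2 scale). Gab1 was higher by 1.30 ± 0.21. Dcn differed by −2.36 ± 0.49, a call lost without PGC replicate 1 (−1.60, adjusted p = 0.079), as was that of Slc38a4 (1.08, and 0.89 without it). Without PGC replicate 2, 8 members were called.

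In all 4 factor lines Sgce, Plagl1, Cdkn1c and Grb10 were lower than in parental +Dox cells, and Ascl2 and Gab1 higher. The 4 comparisons share the parental +Dox arrays, so they are set side by side with no count of shared genes. In BP14A cells at day 2, 6 members were higher and 13 lower (52.8%, against 13.9% of all genes, 6.63% higher and 7.25% lower). In BP14 cells 3 were higher and 7 lower (27.8%, against 12.8%, 6.39% higher and 6.43% lower). P14A cells had 3 and 8 (30.6%, against 12.5%, 5.65% higher and 6.81% lower), and P14 cells 3 and 7 (27.8%, against 12.9%, 6.34% higher and 6.6% lower). Sgce, at 7.30 and 7.14 in parental +Dox cells, read 4.09 and 3.79 in BP14A, 4.72 and 4.49 in BP14, 4.62 and 3.15 in P14A and 3.48 and 4.34 in P14 cells. Its falls were by 3.28, 2.62, 3.34 and 3.31, each ± 0.46; the means of BP14A, P14A and P14 lay below the dim level, so these 3 sizes are imprecise. Plagl1 read 7.62 and 7.98 in BP14A, 7.47 and 7.04 in BP14, 6.96 and 7.01 in P14A and 6.71 and 7.01 in P14 cells, and fell by 2.08, 2.63, 2.90 and 3.02, each ± 0.37. All factor-line arrays lay below both parental arrays for these 2 genes. EpiLCs stood at 4.39 and 4.14 for Sgce and 6.63 and 6.21 for Plagl1.

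Cdkn1c, at 8.93 and 8.86 in parental +Dox cells, fell by 2.47 ± 0.34 in BP14A, 2.18 ± 0.34 in P14A and 1.87 ± 0.34 in P14 cells. In BP14 cells the arrays read 7.83 and 6.88, a fall by 1.53 ± 0.34 (adjusted p = 0.00247) that lost its call without replicate 2 (a fall by 1.06, adjusted p = 0.053), which left the array with the low 5′ Gapdh value. Grb10 fell by 2.19, 1.78, 1.71 and 1.78, each ± 0.27 (BP14A, BP14, P14A and P14). Ascl2 rose in all 4 lines, by 2.45, 2.48, 2.19 and 1.92 (± 0.32), from the dim 2.62 and 3.29 to between 4.68 and 5.58. Gab1 rose by 1.40, 1.70, 1.21 and 1.45 (± 0.21), and without BP14A replicate 1 its BP14A change came to 1.0, on the 2-fold limit, and was no longer called. Both Ascl2 and Gab1 had fallen in parental +Dox cells against EpiLCs, and the group means of all 4 lines still lay below those of EpiLCs. Sfmbt2 rose by 2.23 ± 0.43 in BP14A, 1.87 ± 0.43 in P14A and 1.91 ± 0.43 in P14 cells; in BP14 cells its arrays read 7.13 and 8.50 and it was not called. Paternally expressed Ndn and Igf2 were also called lower in all 4 lines, and Nnat in all but P14. Ndn, at 10.38 and 10.29 in parental +Dox cells, fell by 1.51, 1.03, 1.55 and 1.35 (± 0.23). In BP14 the change came to −0.86 without BP14 replicate 2 and −0.99 without parental replicate 1, under the 2-fold limit. Igf2, at 7.54 and 7.39, fell by 1.51, 1.66, 1.34 and 1.62 (± 0.37), to between 5.75 and 6.39. The P14A call of Igf2 was lost without P14A replicate 2 (−1.08, adjusted p = 0.135) or parental replicate 1 (−1.27, adjusted p = 0.0812). Nnat, at 10.30 and 9.20, read 6.94 and 7.80 in BP14A and 7.12 and 6.81 in P14A cells, falls by 2.39 and 2.79 (± 0.65). Both calls were lost without parental replicate 1 (−1.84 and −2.24, adjusted p = 0.138 and 0.0671), and that in BP14A also without BP14A replicate 1 (−1.96, adjusted p = 0.113). In BP14 cells Nnat fell by 1.85 (adjusted p = 0.0462), a call lost without either BP14 array (−1.68 and −2.03, adjusted p = 0.214 and 0.0809) or parental replicate 1 (−1.31, adjusted p = 0.318), and in P14 cells it had no call (−1.58, adjusted p = 0.0949). By expressed allele, 5 paternal genes were higher and 6 lower of 21 in BP14A cells, and 1 maternal gene was higher and 6 lower of 13.

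In the Dlk1-Meg3 cluster the BP14A line stood lowest at day 2. Mirg read 9.41 and 9.63 in parental +Dox cells, 7.71 and 7.80 in BP14A, 8.91 and 8.98 in BP14, 8.20 and 8.46 in P14A and 8.46 and 8.63 in P14 cells. It fell by 1.77 ± 0.43 in BP14A (adjusted p = 0.00461) and was not called in the other 3 lines. Meg3 in BP14A, at 11.08 and 11.01 against 12.24 and 12.21, fell by 1.18 ± 0.35 (adjusted p = 0.0186), and lost its call without any 1 of the 4 arrays (adjusted p from 0.0728 to 0.0904). Whether BP14A differed from the other lines was not tested. The streak markers above stood at 8.54 to 8.6 in parental +Dox cells and at 3.21 to 4.08 in the 4 lines at day 2. Of the 4 markers, 4 and 1 were above the dim level. Extraembryonic endoderm markers averaged 6.15 to 6.18 in parental +Dox cells and 4.34 to 4.73 in the 4 lines, and up to 6.36 in other groups. In parental +Dox cells Foxa2 stood at 10.23 and Gata6 at 6.56, but Afp at 4.1 and Ttr at 4.68. The part of either list in these results was not tested.

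**Figure D5:**
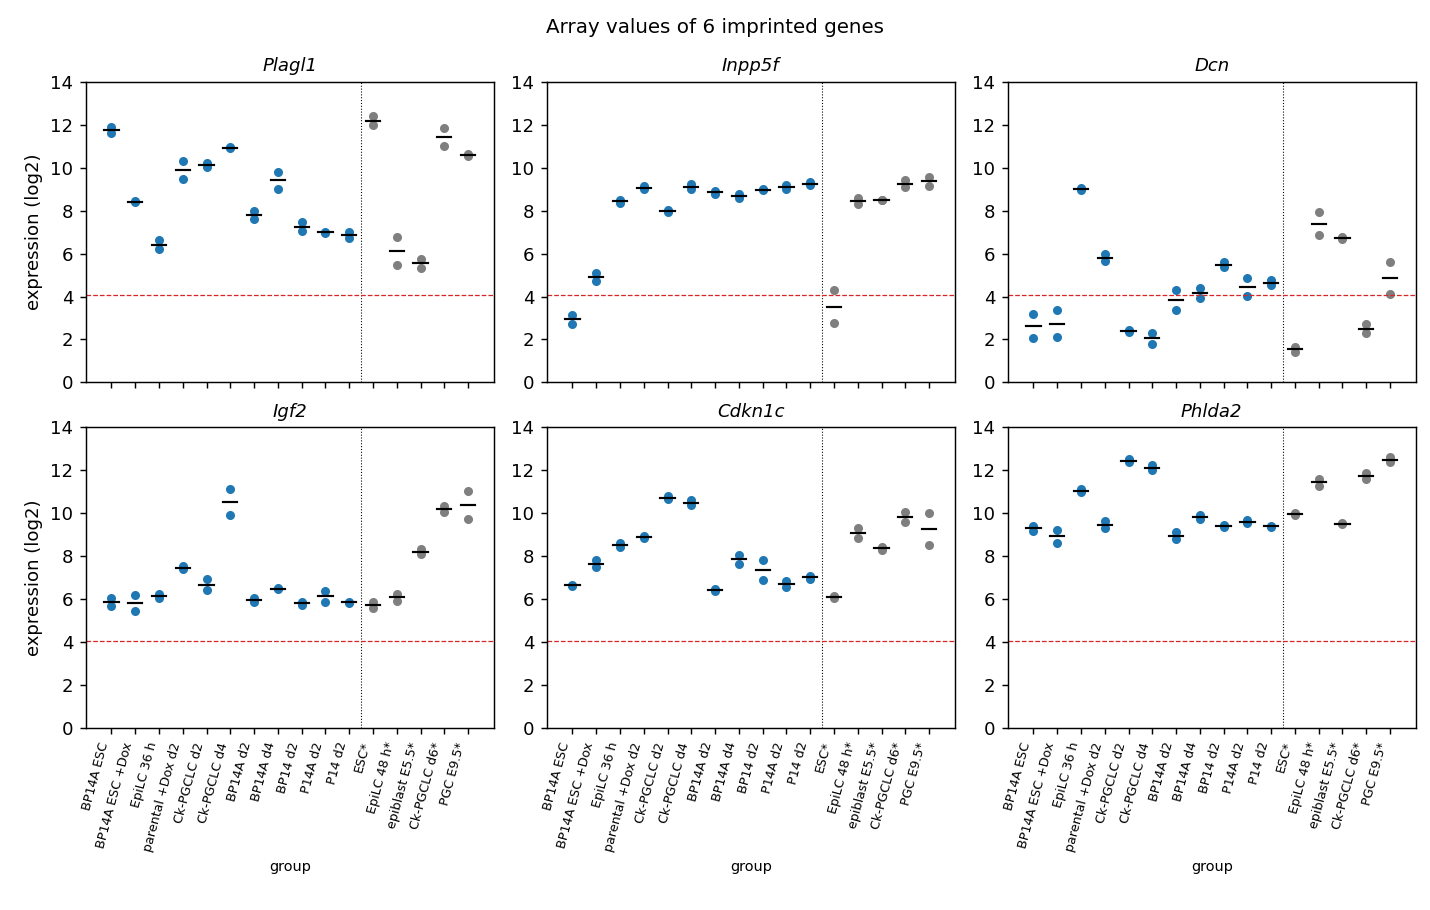
Log2 array values of Plagl1, Inpp5f, Dcn, Igf2, Cdkn1c and Phlda2 in 16 groups; dots are arrays, bars group means of 2 arrays, the dashed line the dim level of 4.05, and the dotted line separates new (blue) from earlier (grey) arrays. Igf2 is above 9.5 in day 4 and day 6 Ck-PGCLCs and PGCs, and Cdkn1c and Phlda2 are high in every Ck-PGCLC group and lower in the 4 factor lines.

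Set directly against Ck-PGCLCs of the same day, BP14A cells had less Phlda2, Cdkn1c and Sgce RNA on both days, and less Igf2 at day 4. BP14A cells at day 2 had 3 members higher and 11 lower (38.9%, against 12.6% of all genes, 5.55% higher and 7.01% lower). At day 4 these were 2 and 6 (22.2%, against 6.12%, 3.39% higher and 2.74% lower). Phlda2 read 12.37 and 12.52 in day 2 Ck-PGCLCs and 8.80 and 9.12 in BP14A cells, a fall by 3.48 ± 0.19 (adjusted p = 1.6e-10), and at day 4 12.24 and 12 against 9.75 and 9.93, a fall by 2.27 ± 0.19. Cdkn1c fell by 4.30 ± 0.34 (10.65 and 10.79 against 6.46 and 6.38) at day 2 and by 2.62 ± 0.34 at day 4. Sgce fell by 3.68 ± 0.46, to a dim level, and 3.15 ± 0.46. Igf2 stood at 6.53 and 6.46 in BP14A cells at day 4 against 11.15 and 9.92, a fall by 4.04 ± 0.37 (adjusted p = 8.13e-07). Sfmbt2 at day 2 was higher by 2.00 ± 0.43 and Mest by 1.64 ± 0.32. Of the control genes Dnmt3l was higher by 3.66 at day 2 and 6.03 at day 4, and Dppa3 by 3.29 at day 2. Streak markers averaged 9.98 to 10.23 in day 2 Ck-PGCLCs and 3.64 to 3.77 in BP14A cells (4 and 1 of 4 above the dim level), and at day 4 4.31 to 4.87 and 3.8 to 4.42 (2 and 1). Trophoblast markers averaged 6.49 to 6.58 and 4.69 to 4.78 at day 2 (5 and 3 of 6), and 5.97 to 6.09 and 5.26 to 5.7 at day 4 (6 and 5). Among them Hand1 stood at 9.88 against 3.06 at day 2 and 7.89 against 2.49 at day 4. Gata3 stood at 7.8 against 3 at day 2 and 4.89 against 5.3 at day 4. Krt7 and Plet1 went the other way on both days. They stood at 5.46 against 6.61 and 6.31 against 7.47 at day 2, and at 6.78 against 7.68 and 6.9 against 7.71 at day 4. The part of these markers' cells in the results was not tested.

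The day 4 comparison rests on the 2 BP14A arrays with 5′ minus 3′ Gapdh differences of −4.66 and −2.99, against −0.47 and −1.62 in day 4 Ck-PGCLCs, and the part of this in the result was not tested. Without BP14A day 4 replicate 1 its count of 8 became 5, and without Ck-PGCLC day 4 replicate 1 it became 4. The falls of Igf2, Sgce, Cdkn1c and Phlda2 held without each of the 4 arrays. Between days 2 and 4 of BP14A cells 2 members were called (5.56%, against 1.43% of all genes, 0.936% higher and 0.497% lower): Plagl1 rose by 1.61 ± 0.37 to 9.01 and 9.80, and Cdkn1c by 1.44 ± 0.34 to 7.66 and 8.07. Both lost their calls without any 1 of the 4 arrays (adjusted p from 0.0506 to 0.203).

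In BP14A ESCs given doxycycline Plagl1 was lower, and Slc38a4, Peg12 and Inpp5f were higher. Sorted stella-ECFP positive cells had 7 members higher and 2 lower than BP14A ESCs (25%, against 9.41% of all genes, 5.51% higher and 3.9% lower). The 5′ Gapdh control was low on 1 array of each group, and a fit without those arrays rests on 1 array of each. Plagl1 read 8.43 and 8.39 against 11.89 and 11.60, and fell by 3.33 ± 0.37 (adjusted p = 2.46e-06). Inpp5f read 4.74 and 5.08 and rose by 1.97 ± 0.31 from a dim level. Slc38a4 rose by 2.45 ± 0.22 to 10.28 and 10.20, Peg12 by 2.86 ± 0.46 from the dim 1.52 and 1.07 to 3.87 and 4.44, Mest by 1.65 ± 0.32 and Ndn by 1.57 ± 0.23. Dcn, at 3.37 and 2.11, was dim in both groups. The comparison shares the BP14A ESC arrays with the EpiLC comparison, and the sort was applied to the treated cells only, so sorting and treatment cannot be told apart.

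Of the Peg3 pair, Peg3 was bright in every group and Usp29 near background. Peg3, a zinc finger gene, ran from 10.38 in BP14A ESCs to 12.68 in day 2 Ck-PGCLCs among the new groups, and reached the dim level in all 16 groups. Usp29, which starts beside it on the other strand, reached the dim level in 2 groups of 16 and gives no basis for a comparison. In the Snrpn cluster Ndn ran from 7.16 in BP14A ESCs to 10.33 in parental +Dox cells among the new groups. Among the earlier ones it ran from 7.75 in ESCs to 11.19 in PGCs. Magel2 and Mkrn3 moved less, Magel2 between 5.68 and 7.55 and Mkrn3 between 5.16 and 6.85. In the Dlk1-Meg3 cluster Dlk1, the paternally expressed coding gene, stayed between 3.82 and 4.98 in the new groups. In the earlier ones it stayed between 4.11 and 5.81, and was highest in PGCs, at 6.63 and 5.0.

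In the Kcnq1 cluster 5 coding genes were called in at least 1 comparison, and Kcnq1ot1 and Tssc4 in none. Kcnq1ot1, the paternally expressed RNA that silences its neighbours, kept all group means between 6.44 and 7.21. Tssc4 lay between 8.25 and 8.99. Cd81 ranged from 7.54 in BP14A cells at day 2 to 11.02 in BP14A ESCs among the new groups, and from 8.38 in PGCs to 11.1 in ESCs among the earlier ones. In the Grb10 pair, Grb10 and Ddc moved in opposite directions in the step from ESCs to EpiLCs and in parental +Dox and day 2 Ck-PGCLCs against EpiLCs, where Ddc fell by 1.55 ± 0.22 and 1.32 ± 0.22 and Grb10 rose by 1.39 ± 0.27 and 1.47 ± 0.27. Sgce and Ppp1r9a of the Peg10 cluster were unlike each other: group means of Sgce ran from 3.51 in BP14A ESCs +Dox to 7.69 in day 4 Ck-PGCLCs, and those of Ppp1r9a from 7.05 to 7.91.

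The probe sets of a gene did not always tell the same story. Ndn had 8 probe sets and Meg3 11. Each other tested probe set was paired with the chosen one in every comparison where either was called. The calls were the same in 40 of 79 pairs for Ndn and 20 of 42 for Meg3. For Ascl2 these were 17 of 22, for Peg3 4 of 11, for Slc22a18 1 of 5 and for Sgce 1 of 9. The other probe set of Sgce had group means from 1.81 to 4.78. For Plagl1 the other tested probe set gave 0 of 14 calls, and its group means ran only from 3.17 to 4.32. The others of Grb10 gave 0 of 24, with group means from 5.57 to 6.24 and from 4.25 to 5.31, and the other of Mirg 0 of 6. No other probe set was called in the opposite direction for any member. The calls of Plagl1, Grb10 and Mirg rest on a single probe set each, as do those of Gnas, Impact, Dlk1 and Igf2r, where no other gave the same call. Cdkn1c, Phlda2, Mest, Nnat, Peg12, Zdbf2, Cd81, Magel2, Mkrn3 and Nap1l5 had only 1 probe set. The second probe sets of Igf2, Dcn, Ddc and Sfmbt2 were too dim to be tested. Of the 197 calls 64 were lost with the mean of all probe sets, and 1 turned its sign: Igf2 in parental +Dox cells against EpiLCs, 1.33 with the chosen probe set (adjusted p = 0.0121) and −0.10 with the mean, where the second probe set averaged 2.33 over all arrays.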

How the data were processed

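RNA of 32 samples was hybridised to 1-colour Affymetrix arrays after PCR amplification of the cDNA, per the labels' protocols. The authors deposited log2 values, 1 per probe set and array, with software for summarisation and normalization not given in the sources used here. Their range, 0 to 14.59, gave the log2 scale. The 64 control probe sets were left out, and arrays were quantile normalized, which hides a change in total RNA. Only probe sets with 1 symbol in the platform annotation (34945) named a gene. A limma model (version 3.58.1, R 4.3.3) with 16 group means over all 32 arrays (16 residual degrees of freedom) tested 15497 genes with a group mean at or above the 40th percentile. Since the labels do not say that duplicates came from separate cultures, a p-value here reflects array-to-array spread only, and some of it may be technical. The fit was tested on simulated data.

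The members, lists and comparisons were chosen with earlier results of these data known. The text names up to 6 rises and 6 falls among called members per comparison, cluster members, and up to 2 called control genes in each direction. Dnmt3l is named in addition for the step from ESCs to EpiLCs. The cluster and expressed allele of each gene are textbook knowledge. Replicate numbers were checked for pairing, by the deviations of same-numbered arrays from their group means. These correlated above 0.1 in 10 of 10 pairs of earlier groups (0.243 to 0.522). In the new groups 25 of 55 pairs did so (−0.219 to 0.476, median 0.073). The numbers thus pair the earlier arrays, and whether they pair some of the new ones was not settled. Alternatives were the deposited values, median centring, the mean of a gene's probe sets, no filter or the 60th percentile, trend and robust options, a replicate block, a single submission, and leaving out each array.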

Additional observations from a re-analysis of the deposited data

Results flagged for a closer look

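The step from ESCs to EpiLCs was larger or smaller in the new than in the earlier submission for 3 imprinted genes, by the limma interaction over 15497 genes, which called 142 genes in all (0.916%). Grb10 rose by 1.85 in the new and 3.74 in the earlier arrays, a difference of −1.88 ± 0.38 (SE, adjusted p = 0.0207). Peg3 rose by 1.01 in the new arrays (0.79 without BP14A ESC replicate 2 and 0.98 without EpiLC replicate 1, both under the 2-fold limit) and had a change of −0.06 in the earlier ones, a difference of 1.07 ± 0.25 (adjusted p = 0.0496). Slc38a4 rose by 1.60 and had −0.27 in the earlier arrays, a difference of 1.86 ± 0.32 (adjusted p = 0.00593). The submissions differ in line, genetic background and hours in EpiLC medium, and these cannot be told apart.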

How the results depend on the processing

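No called member reversed with the deposited values or median centring, where 6 and 4 of 197 calls were lost; 13 were lost within a submission, 2 without the filter and 0 with the replicate block, the 60th percentile filter or the trend and robust options. Without each array in turn 138 calls held, and 101 held under every setting run. The 1 reversal was Igf2, parental +Dox against EpiLC, at −0.1 with the mean of all probe sets.

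With that mean, member counts fell from 13 to 7 (parental +Dox against EpiLC), 17 to 11 (day 2 Ck-PGCLC against EpiLC), 10 to 6 (Ck-PGCLC day 4 against 2), 19 to 11 and 10 to 6 (BP14A and BP14 against parental +Dox), 2 to 1 (BP14A day 4 against 2), 14 to 7 (BP14A against Ck-PGCLC, day 2) and 5 to 3 (day 6 Ck-PGCLC against PGC). Within the earlier submission, 48 h EpiLC against epiblast fell from 6 to 3. The replicate block took BP14A day 4 against day 2 from 2 to 4 and moved no other count by over 1.5 times. Leaving out 1 array gave 0 in that comparison each time, 4 to 7 for BP14A against Ck-PGCLC at day 4, and 4 to 8 for day 6 Ck-PGCLC against PGC.

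Over all genes, 48 h EpiLC against epiblast called 735, and 305 within the submission or 486 without epiblast replicate 2; BP14A day 4 against day 2 called 222, and 60 to 137 without 1 array, with 65.3% higher as normalized and 77.3% as deposited; BP14A against Ck-PGCLC at day 4 called 949, and 598 without Ck-PGCLC replicate 1; day 6 Ck-PGCLC against PGC called 1140, and 756 within the submission. Arrays low in the 5′ Gapdh control were left out together, an alternative chosen after seeing the data. This allows 5 comparisons: 36 h EpiLC against BP14A ESC, parental +Dox and day 2 Ck-PGCLC against 36 h EpiLC, BP14 against parental +Dox, and BP14A ESC +Dox against BP14A ESC. Each then has a group of 1 array, and the share over all genes was not counted, so no counts are given.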
